A study of Danio rerio with 8 samples.

Results

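The enzymes of heme synthesis were followed through RNA sequencing of zebrafish embryos given 7,17-diHDPAn-3, a lipid mediator that carries a pair of hydroxyl groups and is made from docosapentaenoic acid, or kept as controls. Rows of the gene count table were taken by symbol for alas1, alas2, alad, uros, urod, cpox, ppox and fech. This gave 8 of 32020 rows, 1 for each enzyme named.

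The series held 4 treated libraries, numbered 5 to 8, and 4 controls, numbered 1 to 4. The labels give embryo as the tissue, and red cells with their progenitors as the cell type. The design text names the AB wild-type strain and the reporter lines Tg(gata1: Dsred), in which a gata1 promoter drives a red fluorescent protein, and Tg(CD41:GFP). It describes the lipid as dissolved in ethanol, with exposures of 1.5 µM between 11 and 36 hours post fertilization in a screen and of 1 to 1.75 µM in a dose search. All 8 library names carry the word gata, with no statement of what it marks there, and that of control 4 also carries 2b, which is not explained. The strain, dose, hours, number of embryos and any cell sorting behind these 8 libraries, and whether controls received ethanol, are not stated in the labels or the design text. Whether each library had its own clutch of embryos is not stated either, so the p-values below measure the spread between these libraries, which may be technical.

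Heme is an iron-holding ring that lets hemoglobin carry oxygen. The pathway starts inside the mitochondrion, where ALAS joins glycine and succinyl-CoA, runs through the cytosol, and returns to the mitochondrion, where iron is inserted. Every cell makes some heme for cytochromes and other enzymes through ALAS1, while developing red cells make far more through ALAS2. In zebrafish, mutants in this pathway were found by their pale or light-sensitive blood: sauternes carries a mutation in alas2, yquem in urod, montalcino in ppox and dracula in fech.

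Library totals lay between 2502636 and 3800120 counts in treated libraries and between 3131969 and 4794081 in controls. Against the cell type given in the labels, the 14 matched rows of a red cell marker list held 0.314% to 0.749% of counts in treated libraries and 0.351% to 0.785% in controls, not counting the globin rows named HBE1. The 7 matched rows of a muscle list held 0.519% to 1.17% of counts in treated libraries and 0.0817% to 0.920% in controls, and the 6 rows of an epidermal list 0.566% to 0.725% of counts in treated libraries and 0.428% to 0.859% in controls. The muscle share of 0.0817% was that of control 1 alone, with 0.509%, 0.365% and 0.920% in controls 2, 3 and 4. Muscle rows had higher treated values in 7 of 7 cases (median log2 fold change 0.81), with 0 called. The 5 matched endothelial rows held 0.00931% to 0.0165% of counts in treated libraries and 0.00626% to 0.00888% in controls, and these shares did not overlap. All 5 had higher treated values (median 0.73), 5 had an unadjusted p of at most 0.05 and 3 had non-overlapping groups, beside 6.93% and 4.62% of all genes, with 0 called. Transcripts of other tissues were thus present beside those of red cells in every library, and the part of tissue makeup in the results below was not tested. In such bulk RNA, fewer red cells and less RNA per red cell cannot be told apart. The 8 heme enzyme rows together held 0.0451% to 0.0926% of counts in treated libraries and 0.0551% to 0.101% in controls. Values below are CPM, counts relative to the TMM-scaled library total, in which a gene is compared between libraries. Levels of different enzymes are not compared because lengths of the counted transcripts were not used.

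None of the heme enzymes was shown to differ between treated and control libraries, and treated and control values overlapped for every enzyme but alas1. 7 of the 8 rows had lower and 1 had higher treated values, with a median log2 fold change of -0.13, beside 7202 lower and 7047 higher of the 14249 genes tested and a median of -0.0045. edgeR's quasi-likelihood test, with p adjusted over all genes tested, called 0 of the 8 rows at an adjusted p of at most 0.05, where it called 0% of all genes; DESeq2 called 18 genes and limma-voom 0, none of them a heme enzyme. The unadjusted p was at or below 0.05 for 0 of 8 rows, beside 6.93% of all genes (987). Treated and control values did not overlap for 1 row, alas1, beside 4.62% of all genes. The 95% intervals of all 8 fold changes included no change, and their outer bounds were a fold of 0.414 for alas2 and 2.22 for urod. Differences inside each row's interval remain possible with 4 libraries a group. The intervals do not mark the smallest difference that the test, adjusted over all genes, could call.

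**Figure D1:**
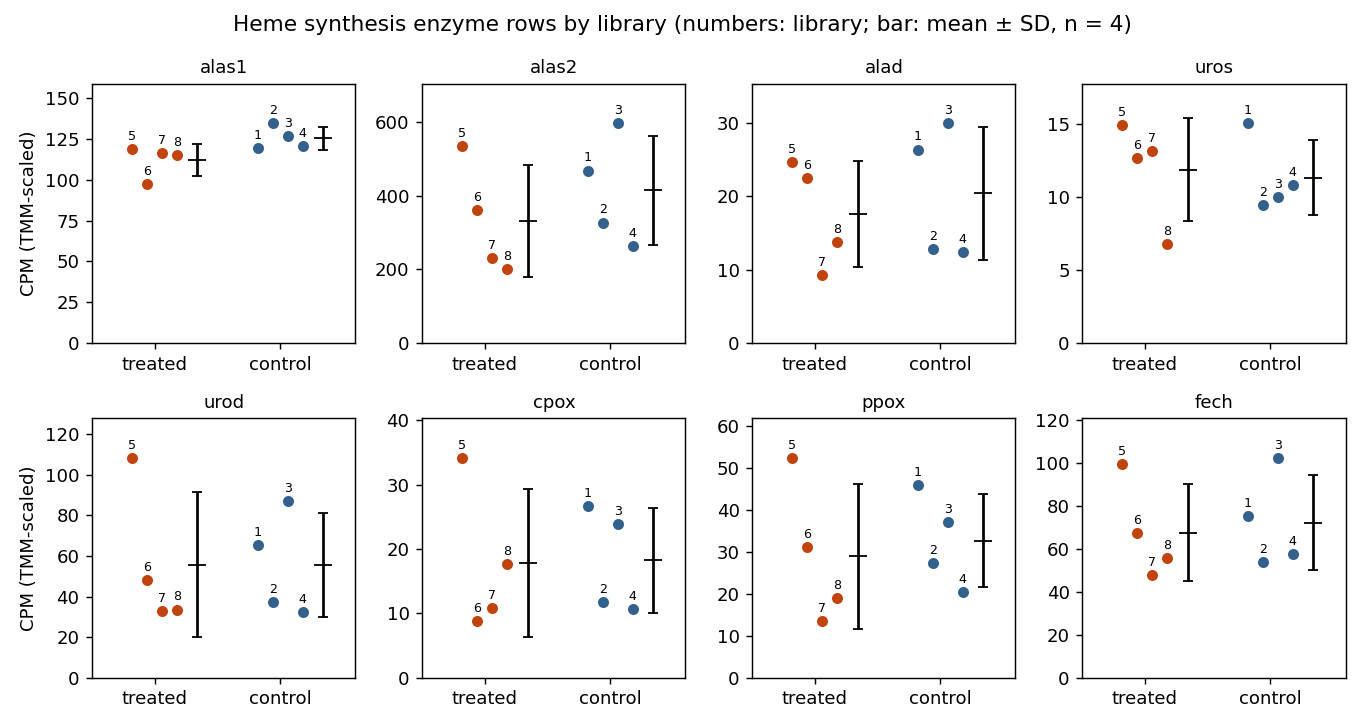
CPM of each heme enzyme row (vertical axis, linear, from 0) in the 4 treated and 4 control libraries, with library numbers beside the points and the mean ± SD as a bar. Treated 5, control 1 and control 3 are the highest libraries in 6 of the 8 panels, and alas1 varies little.

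The first step was measured through a pair of genes that behaved differently across libraries. alas1, the general enzyme, stood at 119.0, 97.7, 116.3 and 114.9 CPM in treated libraries 5 to 8, against 119.4, 134.7, 127.1 and 120.7 CPM in controls 1 to 4. Each treated value was below each control value, though the highest treated and the lowest control library differed by only 0.420 CPM. The log2 fold change was -0.17 ± 0.11 SE (95% interval -0.41 to 0.076, edgeR adjusted p = 0.821). It kept its sign under all 18 alternatives, from -0.19 to -0.11. The gap between the groups closed with RLE scaling, with a filter at 5 CPM, and without treated 7, control 2 or control 4, where it was between -1.19 and -0.465 CPM. Of a liver and yolk list, named here because ALAS1 is abundant in mammalian liver, 4 of 10 rows (TTR, ahsg1, vtg2 and serpina1) had no count in any library, and the whole list held 0.00196% to 0.00511% of counts in treated libraries and 0.00207% to 0.0235% in controls. The share of 0.0235% was that of control 3 alone, with 0.00207%, 0.00765% and 0.00531% in controls 1, 2 and 4. All 4 tested rows of that list had lower treated values, with a median log2 fold change of -1.49 and 0 called. The part of these rows in the alas1 values was not tested.

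alas2, the red cell enzyme, stood at 535, 361, 232 and 200.3 CPM in treated libraries 5 to 8, against 469, 328, 598 and 265 CPM in controls 1 to 4. Its 3 highest libraries were control 3, treated 5 and control 1, and its lowest were treated 8 and treated 7, so the groups overlapped. The log2 fold change was -0.32 ± 0.40 SE (95% interval -1.27 to 0.63, edgeR adjusted p = 0.912). It was -0.65 without treated 5 and -0.097 without control 3. Within a group, alas2 varied by 2.67-fold among treated libraries and 2.26-fold among controls, where alas1 varied by 1.219-fold and 1.13-fold. The counts behind alas2 ran from 739 in treated 8 to 2239 in control 1, so counting error alone gives an SD of 0.042 on the log2 scale, against a pooled within-group SD of 0.59.

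The steps between ALAS and the return to the mitochondrion run in the cytosol. alad, which makes porphobilinogen from the product of ALAS, stood at 24.7, 22.5, 9.29 and 13.8 CPM in treated libraries 5 to 8, against 26.4, 12.8, 29.996 and 12.5 CPM in controls 1 to 4. Treated 7 was lowest and control 3 highest, and the ranges of the groups overlapped (log2 fold change -0.22 ± 0.35 SE, 95% interval -0.98 to 0.54).

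uros, which closes the porphyrin ring, was counted only 25 to 49 times in treated libraries and 31 to 72 times in controls. Its values were 14.9, 12.7, 13.2 and 6.78 CPM in treated libraries 5 to 8, against 15.1, 9.49, 9.999 and 10.9 CPM in controls 1 to 4. Treated 8 was lowest and control 1 highest (log2 fold change 0.048 ± 0.29 SE, 95% interval -0.57 to 0.67). urod, which trims the side chains of the ring, stood at 108, 47.9, 32.98 and 33.6 CPM in treated libraries 5 to 8, against 65.4, 37.5, 87.1 and 32.3 CPM in controls 1 to 4. Treated 5 alone was 3.29 times as high as treated 7, and its group means were nearly equal (log2 fold change -0.0096 ± 0.49 SE, 95% interval -1.17 to 1.15). Without treated 5 the value was -0.53, and without control 3 it was 0.28.

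The last steps take place at the mitochondrion. cpox, which oxidises coproporphyrinogen, stood at 34.1, 8.81, 10.8 and 17.6 CPM in treated libraries 5 to 8, against 26.6, 11.8, 23.9 and 10.6 CPM in controls 1 to 4. Treated 5 was its highest and treated 6 its lowest library (log2 fold change -0.062 ± 0.44 SE, 95% interval -1.03 to 0.90). ppox, which makes protoporphyrin, stood at 52.5, 31.1, 13.5 and 18.97 CPM in treated libraries 5 to 8, against 45.9, 27.5, 37.1 and 20.5 CPM in controls 1 to 4. Its highest and lowest libraries, treated 5 and treated 7, were both treated and differed 3.89-fold (log2 fold change -0.20 ± 0.40 SE, 95% interval -1.07 to 0.68). fech, the ferrochelatase that inserts iron, stood at 99.4, 67.1, 47.97 and 55.6 CPM in treated libraries 5 to 8, against 75.02, 53.9, 102 and 57.5 CPM in controls 1 to 4. It varied less than cpox and ppox, and control 3 and treated 5 were again its highest libraries (log2 fold change -0.10 ± 0.25 SE, 95% interval -0.63 to 0.43). The edgeR adjusted p of these enzymes and of the cytosolic ones lay between 0.939 and 0.997.

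**Figure D2:**
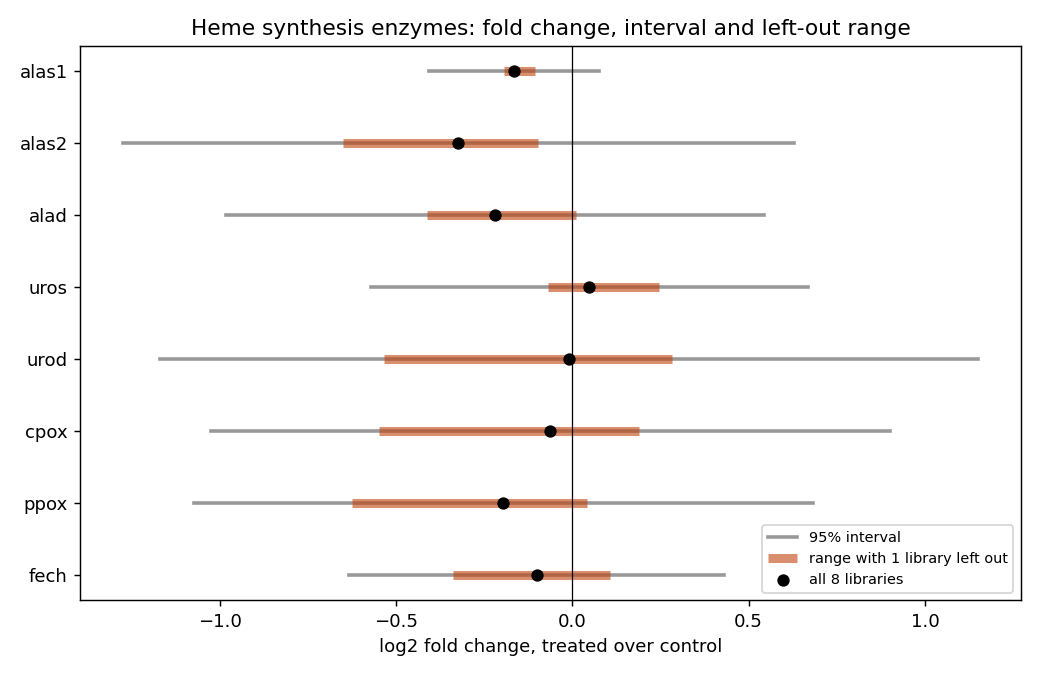
Log2 fold change, treated over control, of each heme enzyme row with all 8 libraries (points), its 95% interval (grey lines) and the range of values when 1 library is left out (red bars). Every interval spans 0, alas1 has the narrowest one, and the red bars of 6 rows cross 0.

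The sign of most members depended on single libraries. Without treated 5, all 8 values were negative (the lowest was -0.65 for alas2), and their median was -0.47. Without treated 7, the median was 0.012. The number of rows lower was 4 without treated 7, without control 1 or without control 3. alas1 and alas2 kept their sign under all 18 alternatives, and no enzyme passed the threshold under any of them.

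The spread within groups ran in parallel through most of the pathway. After centring each row on its mean over the 8 libraries, all 8 rows lay above their mean in treated 5 and in control 1, and 7 did in control 3. In treated 6, 7 and 8 the number was 4, 1 and 1, and in controls 2 and 4 it was 1 each. alas1 lay above its mean by only 0.0087 log2 units in treated 5 and 0.014 in control 1. For 6 of the 8 rows the 3 highest libraries were treated 5, control 1 and control 3, which held for 3.19% of the 11704 tested rows with a mean of at least 5 CPM. The exceptions were alas1 and uros. These 3 libraries were singled out after their values were seen, and no test was made of them.

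The same 3 libraries held the most globin, the protein that takes up the heme. Rows named as globins took 1.34%, 0.748%, 0.595% and 0.556% of counts in treated libraries 5 to 8, against 1.36%, 0.736%, 1.37% and 0.609% in controls 1 to 4. Shares thus fell into a cluster of 3 and a cluster of 5 libraries that cut across treatment, so no correlation with the enzymes is given. Of 14 red cell marker rows, 11 had these 3 libraries as their highest, beside 2.90% of all 14249 tested rows. The globin rows hbae1.1, hbae3, hbae5 and hbbe3 were among the 11 and are themselves part of the globin share. The SLC4A1 row ENSDARG00000012881 was also among them. RHAG and klf1 were not, nor was the SLC4A1 row ENSDARG00000024560, which the count filter removed. All 13 tested red cell marker rows had lower treated values, beside 50.5% of all genes, with a median log2 fold change of -0.24 and 0 called. Because most of these rows shared their highest libraries, they are not 13 separate results. With the log2 globin share as a covariate in the edgeR fit, alas2 had a log2 fold change of -0.040 ± 0.12 (SE), whose SE was 0.40 without it. The share was measured in the same libraries, with a mean of 0.811% in treated libraries and 1.02% in controls. Such a fit can take out a treatment effect that red cell genes share with globin. In that fit 2 of the 8 rows, alas1 and alas2, were lower in treated libraries and 6 higher, and 0 were called. The largest value was that of urod, 0.35 ± 0.16 (SE, edgeR unadjusted p = 0.0445, adjusted p = 0.721). alas1 was at -0.16 ± 0.12 (SE), close to its value without the covariate.

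**Figure D3:**
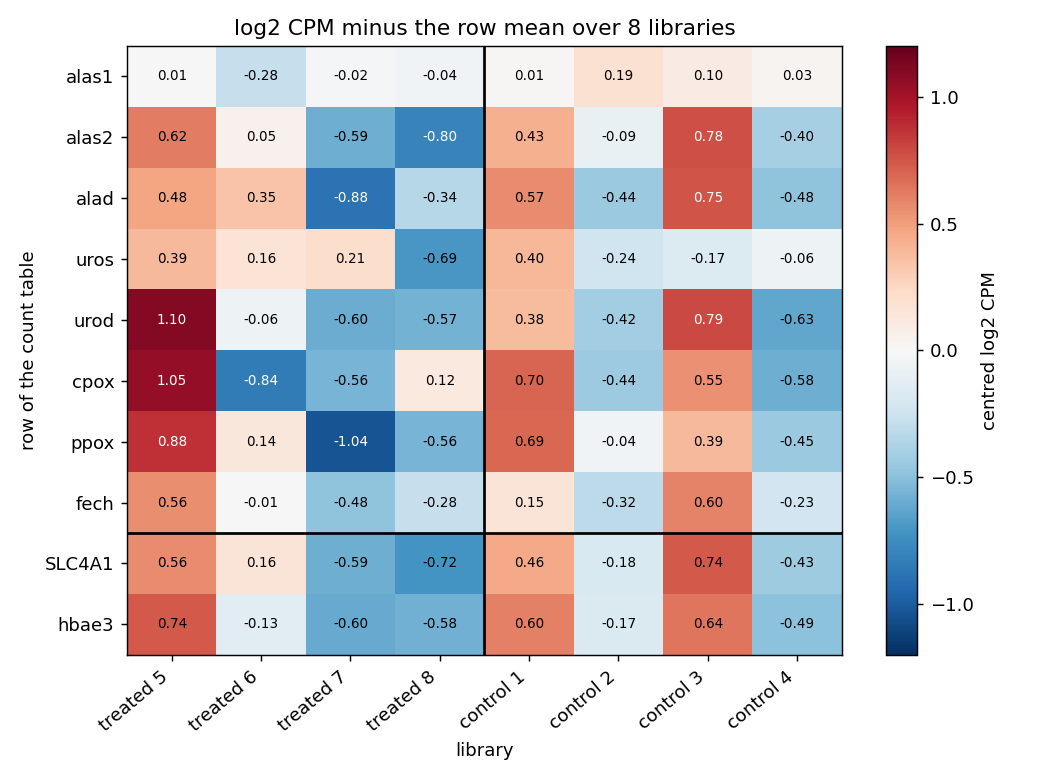
Log2 CPM of each heme enzyme row minus its mean over the 8 libraries (columns, treated left of the line), with the red cell anion exchanger SLC4A1 (ENSDARG00000012881) and the embryonic globin hbae3 below the line for comparison. Treated 5, control 1 and control 3 are red in most rows, and alas1 varies least.

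alas1 was among the steadiest of the tested rows with a mean of at least 5 CPM. Its pooled within-group SD of log2 CPM was 0.11, and only 2.44% of the 11704 tested rows with a mean of at least 5 CPM had a smaller one. The other 7 rows had SDs from 0.40 for uros to 0.76 for cpox, beside a median of 0.33 over those 11704 rows. cpox was more variable than 95.2% and urod than 94.7% of them. Counting error alone would give an SD of 0.071 for alas1, 0.20 for cpox, 0.23 for uros and 0.11 for urod. Rows with fewer counts carry more such error, and no ranking was made among rows of like abundance.

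Genes whose pattern over the 8 libraries was most like that of alas2 were found by the root mean square difference of centred log2 CPM, over 11424 named genes with a mean of at least 5 CPM. The nearest was the SLC4A1 row ENSDARG00000012881, the anion exchanger of the red cell membrane, at 0.0651 log2 units. AMPD2, an AMP deaminase, epb41b, a protein of the red cell membrane skeleton, and the embryonic globin hbae3 followed at 0.126, 0.133 and 0.142. NMT1, an enzyme that attaches a fatty acid to proteins, was the fifth at 0.143. Among the other heme enzymes, urod stood at rank 36 with 0.240 log2 units, fech at 41, alad at 57 and ppox at 58. uros, cpox and alas1 stood farther away, at ranks 986, 2026 and 2560. The measure counts scatter from low counts as difference, which moves rows with few counts away from alas2. alas1 was not such a row, with 279 to 424 counts in treated libraries and 394 to 570 in controls. It varied little, though, and the measure also places any steady row far from a row that varies as alas2 does. Over the 8 libraries alad, at rank 57, had 31 to 126 counts and cpox, at rank 2026, had 34 to 127.

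Ratios taken within each library compared alas2 with alas1 and with the globin rows. The log2 ratio of alas2 to alas1 was 2.16, 1.88, 0.99 and 0.80 in treated libraries 5 to 8, against 1.97, 1.28, 2.23 and 1.13 in controls 1 to 4. It varied in both groups by more than 1 log2 unit, and the difference of -0.19 between group means was within that spread (p = 0.571 by a two-sided exact permutation of libraries, 0.686 when adjusted over 2 ratios). The log2 ratio of alas2 to summed globin rows was -4.74, -4.35, -4.66 and -4.83 in treated libraries 5 to 8, against -4.87, -4.51, -4.53 and -4.47 in controls 1 to 4. This ratio had a smaller SD, 0.21 in treated libraries and 0.18 in controls, and the group means differed by -0.050 (exact permutation p = 0.686, adjusted p = 0.686). The smallest p that 4 against 4 libraries allow is 0.0286. Both differences turned to small positive values without treated 8, 0.026 and 0.010.

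**Figure D4:**
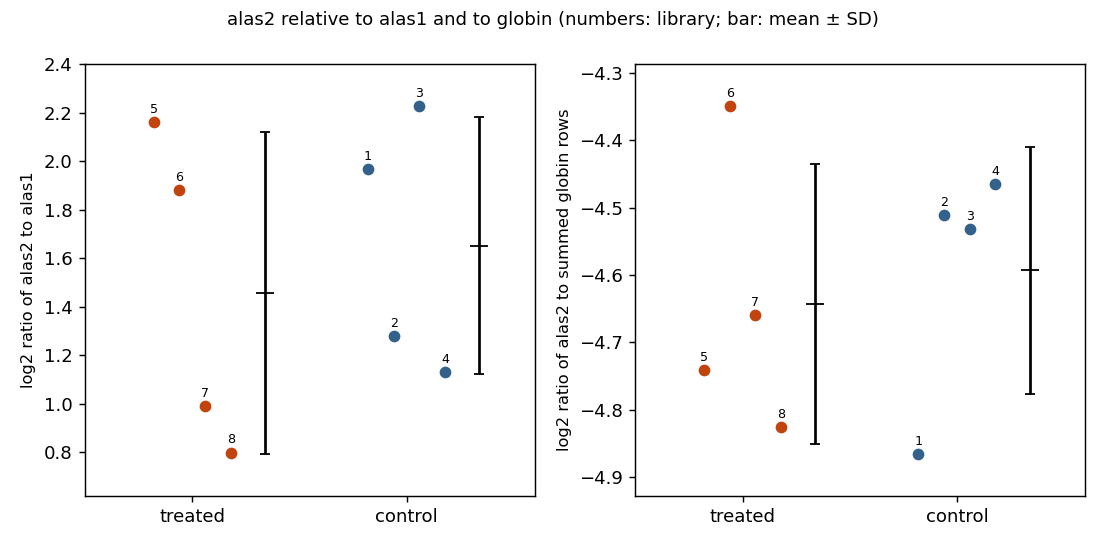
Log2 ratio of alas2 to alas1 (left) and of alas2 to summed globin rows (right) in each library, with library numbers and the mean ± SD (n = 4). The vertical axes have different spans: 0.80 to 2.23 log2 units on the left and -4.87 to -4.35 on the right.

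Partners of the pathway inside the mitochondrion showed no shared direction. Of 22 tested rows of carriers, iron-sulfur assembly factors and proteases, 10 were higher and 12 lower in treated libraries, with a median log2 fold change of -0.033 and 0 called. SLC25A37, the mitoferrin that brings iron to the mitochondria of red cells, stood at 115, 87.04, 59.4 and 50.7 CPM in treated libraries 5 to 8, against 75.02, 57.2, 107 and 54.3 CPM in controls 1 to 4 (log2 fold change 0.086 ± 0.28 SE). Treated 5 and control 3 were its highest libraries, as for fech, and its sign turned without treated 5, control 2 or control 4. ABCB10, an inner membrane transporter on which red cells depend for heme, stood at 23.4 ± 8.96 CPM in treated libraries and 20.3 ± 8.44 CPM in controls (SD, n = 4), and GLRX5, an iron-sulfur assembly factor, at 16.99 ± 5.80 CPM in treated libraries and 17.9 ± 9.67 CPM in controls. fam210b encodes a mitochondrial protein that aids red cells in making heme. Its values were 12.4, 17.9, 7.49 and 12.7 CPM in treated libraries 5 to 8, against 19.1, 14.4, 34.8 and 19.6 CPM in controls 1 to 4. The groups overlapped, and its log2 fold change of -0.78 ± 0.31 (SE) had an unadjusted p of 0.0225 and did not pass (edgeR adjusted p = 0.629). fam210b is named for the smallest p of this list. It was the only 1 of the 22 rows with an unadjusted p of at most 0.05, beside 6.93% of all genes. The tested row of the glycine carrier SLC25A38 stood at 3.29 ± 2.01 CPM in treated libraries and 4.91 ± 1.19 CPM in controls (SD, n = 4, log2 fold change -0.58 ± 0.54 SE). NFS1 and ISCA1, of iron-sulfur assembly, and the protease CLPP had 0.55 ± 0.28, -0.54 ± 0.28 and 0.40 ± 0.23 (log2 fold change ± SE, edgeR adjusted p from 0.738 to 0.774).

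Genes that make, carry or use glycine and succinyl-CoA, the substrates of ALAS, were covered by 15 tested rows. Of these, 12 were higher and 3 lower, with a median of 0.090 and 0 called. The list mixes opposite roles, and GLDC and gcsha belong to a system that breaks glycine down, so these counts give no direction of supply. GLDC, the decarboxylase of the glycine cleavage system, stood at 16.2, 12.4, 18.9 and 15.4 CPM in treated libraries 5 to 8, against 7.12, 7.44, 9.68 and 4.85 CPM in controls 1 to 4. All treated values lay above all control values (log2 fold change 1.12 ± 0.28 SE, unadjusted p = 0.00104), yet it did not pass over all genes (edgeR adjusted p = 0.419). GLDC is named for the smallest p of this list. No other row of the list had an unadjusted p of at most 0.05 or non-overlapping groups, beside 6.93% and 4.62% of all genes. gcsha, which carries the bound glycine in the same system, had the opposite sign, -0.68 ± 0.36 (SE, edgeR adjusted p = 0.756). The neuronal glycine transporter SLC6A5 had -0.53 ± 0.27 and SUCLA2, a subunit of succinyl-CoA synthetase, 0.31 ± 0.16 (log2 fold change ± SE, edgeR adjusted p = 0.740 and 0.753).

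Genes that move or break down heme were tested for 11 of 18 rows, 4 higher and 7 lower, with a median of -0.12 and 0 called. 4 rows, among them the hemopexin genes hpxa and hpxb, had no count in any library. blvrb, which reduces a product of heme breakdown, stood at 78.9, 40.9, 30.6 and 27.4 CPM in treated libraries 5 to 8, against 65.6, 46.2, 106 and 35.1 CPM in controls 1 to 4 (log2 fold change -0.52 ± 0.45 SE, edgeR adjusted p = 0.862), with control 3 and treated 5 highest as for alas2. abcg2c, a transporter related to mammalian ABCG2, which exports porphyrins, stood at 13.2 ± 3.35 CPM in treated libraries and 7.24 ± 3.57 CPM in controls (SD, n = 4). Its log2 fold change of 0.85 ± 0.35 (SE) did not pass (edgeR adjusted p = 0.637). The heme exporter FLVCR1 and the heme oxygenases HMOX1 and hmox2b had 0.22 ± 0.30, 0.32 ± 0.36 and -0.27 ± 0.24, and the heme-binding HEBP2 had -0.38 ± 0.39 (log2 fold change ± SE).

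Regulators of the pathway were lower in treated libraries for 11 of 15 rows and higher for 4, beside 50.5% of all genes lower. Their median was -0.12 and 0 were called. The list mixes genes that raise and genes that restrain heme synthesis, so these counts give no direction for the pathway. GATA1 binds the ALAS2 gene in mammals and drives it in red cells. gata1a stood at 39.2, 6.74, 2.40 and 5.15 CPM in treated libraries 5 to 8, against 22.6, 15.1, 22.9 and 9.004 CPM in controls 1 to 4. Treated 5 alone lay far above the other treated libraries, where the level was below that of every control. The log2 fold change of -0.46 ± 0.83 (SE) was -1.85 without treated 5 (edgeR adjusted p = 0.452). With limma-voom on all 8 libraries it was -1.32 (limma-voom adjusted p = 0.579), so gata1a was not called in either fit. klf1, a Kruppel-like factor of red cells, stood at 35.8, 21.8, 11.4 and 8.94 CPM in treated libraries 5 to 8, against 27.9, 15.4, 21.6 and 13.4 CPM in controls 1 to 4 (log2 fold change -0.034 ± 0.40 SE). Both regulators had their 2 lowest levels in treated 7 and treated 8, as alas2 did. So did the SLC4A1 row ENSDARG00000012881, AMPD2, hbae3 and blvrb, though not epb41b or NMT1. A link between these regulators and alas2 was not tested. NFE2 stood at 1.93 ± 0.739 CPM in treated libraries and 3.87 ± 1.21 CPM in controls (SD, n = 4), a level of few counts, and ACO1, the iron-regulatory protein that in mammals binds the ALAS2 messenger when iron is low, at 23.2 ± 5.22 CPM in treated libraries and 18.2 ± 3.87 CPM in controls. The rows named FOXO1 had 0.54 ± 0.30 for ENSDARG00000061549 and -0.36 ± 0.29 for ENSDARG00000099555 (log2 fold change ± SE). The edgeR adjusted p of the regulators named lay between 0.773 and 0.990.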

How the data were processed

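RNA of 8 libraries, 4 treated and 4 control, was sequenced as paired 100 bp reads from total RNA with a stranded kit, per the labels' protocols. The authors deposited whole-number counts per Ensembl gene. The build GRCz11 and the tools DESeq2 1.22.1, StringTie 1.3.3b, HISAT2 2.1.0, Trim Galore 0.5.0 and CASAVA 1.8.2 are named per the submitters' processing notes, with no role or order. The annotation release and the strand setting of counting are not stated there, so overlapping, antisense and near-identical genes are uncertain. Whether PCR copies were removed is not stated, so counting errors, which treat reads as independent, may be too small.

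Rows matched members and lists by symbol, or by the symbol without its a or b suffix. Rows without a symbol held 23.8% to 26.6% of counts and stayed in the test. Counts were filtered with filterByExpr, which left 14249 of 32020 rows and all 8 members, scaled by TMM and fitted with edgeR 4.0.16 in R 4.3.3 (robust quasi-likelihood F-test, no covariate, Benjamini-Hochberg over all rows tested, threshold 0.05). CPM is relative to the TMM-scaled sum of counts in tested rows. Log2 CPM used a prior count of 2. Intervals are 95% and rest on the spread between libraries. Ratios used exact permutation tests. Alternatives were 3 other scalings, 2 other filters, DESeq2 1.42.0, limma-voom (limma 3.58.1), non-robust dispersion, removal of globin rows, the globin share as covariate and each library left out. Steps were tested on simulated counts in which each gene was drawn independently. That test does not cover differences between libraries that many rows share, as the heme enzyme rows do here. The 12 pairs of libraries of a group differed beyond sampling noise (chi-square over degrees of freedom 7.56 to 18.4, 7.99 for controls 2 and 4), and each library was counted as 1 sample. Such differences do not show whether the libraries came from separate clutches of embryos.

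Members and lists were chosen with earlier results of these data known, so lists are described and not tested. Genes named are the 8 members, the 4 of smallest p in each of 5 context lists, 8 further genes of these lists, the 5 nearest to alas2 of 10 planned, the 3 most abundant globin rows and SLC4A1. Promoters and proteins were not used here, and some genes the rule covers are not reported here.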

Additional observations from a re-analysis of the deposited data

Results flagged for a closer look

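In 4 of 90 groups of 4 libraries, 1 library lay far from the other 3 by Dixon's test at its 95% level, where chance flags about 5%. None of the 16 groups of heme enzyme values was among them. gata1a stood at 39.2 CPM in treated 5 and at 2.40 to 6.74 CPM in the other treated libraries. NFE2 stood at 2.08 CPM in control 4 and at 4.19 to 4.62 CPM in the other controls. The FOXO1 row ENSDARG00000099555 stood at 10.1 CPM in treated 6 and at 24.9 to 27.7 CPM in the other treated libraries. The log2 ratio of alas2 to summed globin rows was -4.87 in control 1 and -4.53 to -4.47 in the other controls.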

How the results depend on the processing

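Over all genes the count of 0 calls became 4 with no low-count filter, 2 with a filter at 5 CPM and 18 with DESeq2, and 0 to 1 with 1 library left out (1 without treated 6 and 1 without treated 7). None was a heme enzyme. It stayed 0 under the other 7 alternatives. The number of heme enzymes lower was 2 with the globin share as covariate and 4 to 8 with 1 library left out. With that covariate the log2 fold change turned positive for alad (0.16), urod (0.35), cpox (0.32), ppox (0.086), fech (0.12), GLRX5 (0.26), klf1 (0.24), SLC4A1 (0.030), epb41b (0.15), hbae3 (0.049), NMT1 (0.038) and the HBE1 row ENSDARG00000115405 (0.038). The rows hbae3 and HBE1 are themselves part of the globin share, so their values near 0 in that fit carry no separate result. With limma-voom uros had -0.025, GLRX5 0.0083 and gata1a -1.32. With 1 library left out, values ran over 0 for alad (-0.41 to 0.010), uros (-0.070 to 0.25), urod (-0.53 to 0.28), cpox (-0.55 to 0.19), ppox (-0.62 to 0.043), fech (-0.34 to 0.11), SLC25A37 (-0.15 to 0.32), ABCB10 (-0.037 to 0.44), GLRX5 (-0.28 to 0.34), klf1 (-0.48 to 0.21) and epb41b (-0.60 to 0.052). The difference in the alas2 to alas1 ratio ran from -0.43 to 0.026 and that in the alas2 to globin ratio from -0.15 to 0.010. The causes were not tested. Among list medians, that of mitochondrial partners was 0.054 without control 3 and that of heme transport and breakdown 0.054 without control 3 and 0.067 without treated 7. That of heme enzyme targets outside globin was -0.22 without treated 8, and that of regulators -0.32 without treated 5. Without control 4, whose name carries 2b, 7 of 8 heme enzymes were lower with a median of -0.22 and 0 called. The 5 genes nearest to alas2 had the same ranks with a prior count of 0.5. Promoter motif counts were not run. No paired analysis was possible because treated and control libraries share no replicate numbers.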

Other observations

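Proteins other than globin that carry, modify or attach heme, or that reduce heme enzymes, were covered by 11 tested rows. Of these, 3 were higher and 8 lower in treated libraries, with a median log2 fold change of -0.044 and 0 called. CAT, the heme enzyme catalase, stood at 11.98 ± 3.88 CPM in treated libraries and 9.13 ± 1.66 CPM in controls (SD, n = 4). The PTGS2 row with the smaller p, a cyclooxygenase, stood at 32.7 ± 5.87 CPM in treated libraries and 43.2 ± 7.43 CPM in controls (SD, n = 4). Its log2 fold change of -0.40 ± 0.19 (SE) did not pass (edgeR adjusted p = 0.722). The cytochrome heme lyase HCCS and the P450 reductase POR, each with several rows of its name, had -0.28 ± 0.38 and -0.18 ± 0.34 (log2 fold change ± SE) in the row of smallest p.

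The most abundant globin rows were HBE1 (ENSDARG00000115405), HBE1 (ENSDARG00000087390) and hbae3. They stood at 2559 ± 1325 CPM in treated libraries and 3107 ± 1219 CPM in controls, at 2342 ± 1168 CPM in treated libraries and 2998 ± 1256 CPM in controls, and at 2148 ± 1042 CPM in treated libraries and 2567 ± 953 CPM in controls (SD, n = 4). Their log2 fold changes were -0.28 ± 0.44, -0.36 ± 0.45 and -0.26 ± 0.42 (SE), and none passed (edgeR adjusted p = 0.939, 0.918 and 0.941).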
